A study of Rattus norvegicus with 14 samples.

Results

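A block of 85 transcript clusters, the rows whose identifiers lie between 10886870 and 10887042, was examined among the 29214 transcript clusters of an expression array read from rat INS832/13 cells. A transcript cluster is a group of probes that the array maker assigns to 1 transcribed region, and each row of the deposited table gives 1 cluster. Rows were grouped when their values were the same on all 6 arrays, as deposited, and the 85 rows came to 39 distinct sets of values, called profiles here. The block and its grouping were chosen from the values of these same 6 arrays, so the levels, spreads and differences of its members are a description of these arrays.

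INS832/13 is an insulin-secreting rat beta-cell line, which the labels call a pancreatic carcinoma line. Cells treated with an anti-miR directed at miR-338, labelled miR-338-3p blockade, gave 3 arrays, and cells treated with a scrambled anti-miR, labelled control, gave the other 3. Both groups thus received an antisense oligonucleotide and came from 1 cell line. The labels call the arrays biological replicates without naming culture days, so the spread between arrays may in part be technical, and the number of arrays limits the precision.

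A microRNA guides a silencing complex to messenger RNAs that pair with its seed, the bases near its 5′ end, and lowers their level or translation. An anti-miR binds the mature microRNA and keeps it from its targets. MiR-338, whose gene lies within an intron of Aatk, is known in islets for a fall in pregnancy and in obesity that accompanies beta-cell mass expansion. The mature strand that the treatment is directed at is shown for reference, from RefSeq on build GRCr8 (chr10:105796345-105796367, minus strand), with the seed, bases 2 to 8, in capitals.
rno-miR-338-3p: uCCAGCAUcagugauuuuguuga

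The mature microRNA itself was not measured on these arrays, so the blockade was not checked here. No table used here pairs the transcript clusters with genes, so the 85 rows are given by identifier only, the beta-cell identity of the line was not checked against marker genes, and no sequence of a member is shown. Genomes hold many sequences in several near-identical copies, among them gene families that arose by tandem duplication, small RNA genes and repeats, and array probes that pair with more than 1 copy sum their signals. Robust multi-array averaging (RMA), the method behind the deposited values, summarizes the probes of each cluster into 1 log2 value per array. The sources used here do not list the probes behind each of the 85 rows.

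The identifiers of the block ran without a gap over even numbers: all 85 even identifiers of the range were present, and 0 odd ones, where 49.2% of all identifiers in the table were odd. The rows just outside, 10886866 to 10886870 and 10887042 to 10887046, continued this even step, so it was not particular to the block. Of the 39 profiles, 8 were held by 2 or more rows, and these 8 took up 54 of the 85 rows (63.5%). The other 31 profiles were held by 1 row each. Among the 29129 rows outside the block, 265 (0.910%) shared their values with another row. None of the 39 profiles recurred outside the block, among all rows of the table.

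The 8 shared profiles are lettered A to H in order of their first row. Profiles A and B were each held by 18 rows, together 36 of the 85 rows (42.4%), and these were the most widely shared profiles of the whole table. The next most shared profiles, outside the block, had 10 rows each, and 104 of the 121 shared profiles of the table had 2 rows. Profile G was held by 7 rows, profile D by 3, and profiles C, E, F and H by 2 each. The label "multi-copy" is borne out by the data only as shared values: 31 of the 85 rows shared theirs with no other row, and the number of copies in the genome was not measured.

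The shared profiles were not spread evenly over the block. Among the first 15 rows, up to 10886900, 12 held values of their own. From 10886902 to 10887012 lay 56 rows, 42 of which belonged to profiles A to F and 14 of which had values of their own. Rows of profile A ran from the first row of the block to 10886998 and rows of profile B from 10886892 to 10887012, so that the rows of A and B were interspersed, with a median step of 3 rows from one A row to the next and likewise from one B row to the next. A followed A directly in 4 places and B followed B directly in 1.

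The last 13 rows, from 10887016 on, were laid out differently. Every other row there belonged to profile G, 7 rows at a constant identifier step of 4, and the 6 rows in between held 5 other profiles, among them both rows of profile H. No row of A or B lay in this last stretch. The order is that of the identifiers, and its relation to the genome was not analysed here.

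**Figure D1:**
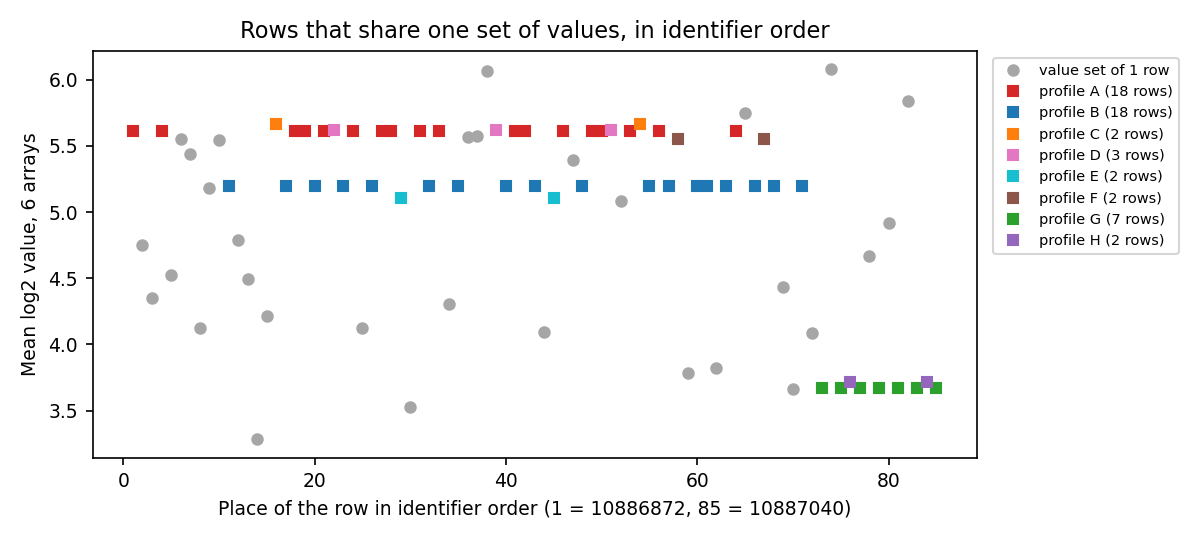
Mean log2 value over the 6 arrays (vertical axis) of each of the 85 rows, in identifier order (horizontal axis, place 1 to 85). Coloured squares mark the 8 profiles shared by 2 or more rows and grey circles the 31 rows with values of their own. Rows of A and B run as interspersed levels at 5.61 and 5.20, and the 7 rows of G alternate with other rows at the right end at a level of 3.67.

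All members lay low on the array. The mean log2 value over the 6 arrays ran from 3.28 to 6.08 over the 39 profiles, with a median of 4.79, where all 29214 clusters had a median of 7.81. Ranked among all clusters, the profiles lay between the 0.934th and the 22.5th percentile, and all 39 lay below the median. No detection call was available, so which of these values stand above background was not analysed here.

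Mean levels were spread over the whole of this range. At a mean of 5 or above lay 18 of the 39 profiles, which carried 57 of the 85 rows, since A, B, C, D, E and F all belong there. The 3 highest profiles were held by 1 row each: 10887018 at 6.08, 10886946 at 6.06 and 10887034 at 5.84. The 3 lowest were 10886898 at 3.28, 10886930 at 3.53 and 10887010 at 3.66, also 1 row each. Levels of different clusters rest on different probes, so their order is a description of signal and not of RNA amount.

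Profile A read 5.66, 5.52 and 5.47 on the anti-miR arrays, against 5.58, 5.55 and 5.88 on the scrambled arrays. Scrambled replicate 3 was the highest array and anti-miR replicate 3 the lowest, and the groups overlapped. The mean was 5.55 ± 0.10 under the anti-miR and 5.67 ± 0.18 under the scrambled anti-miR (SD, n = 3 each), a difference of -0.12 on the log2 scale (SE 0.10). Without scrambled replicate 3 the difference came to -0.014, so most of it rested on that array.

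Profile B read 5.33, 5.14 and 5.31 on the anti-miR arrays, against 4.77, 5.24 and 5.41 on the scrambled arrays. Here scrambled replicate 1 was the lowest array by a wide margin and scrambled replicate 3 the highest, so the scrambled arrays enclosed all 3 anti-miR arrays. The means were 5.26 ± 0.11 and 5.14 ± 0.33 (SD, n = 3 each) for anti-miR and scrambled, a difference of 0.12 (SE 0.16). Leaving out scrambled replicate 1 turned it to -0.066.

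Profiles A and B thus had differences of opposite sign and nearly equal size, neither larger than the spread between replicates. The level of A was 0.41 above that of B on average. This gap was 0.34, 0.38 and 0.16 on the anti-miR arrays and 0.80, 0.32 and 0.47 on the scrambled arrays, widest where B was low, on scrambled replicate 1.

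Profile G, the 7 alternating rows at the end of the block, read 3.83, 3.57 and 3.76 on the anti-miR arrays, against 3.54, 3.74 and 3.58 on the scrambled arrays. Its means were 3.72 ± 0.14 and 3.62 ± 0.11 (SD, n = 3 each) for anti-miR and scrambled, a difference of 0.10 (SE 0.084). The groups overlapped, and the difference stayed positive with any 1 array left out, between 0.046 and 0.18. Anti-miR replicate 1 was its highest array, and its lowest was scrambled replicate 1, as in profile B.

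Profile D, with 3 rows, lay close to A in level and pattern, at 5.68, 5.55 and 5.46 on the anti-miR arrays and 5.61, 5.53 and 5.90 on the scrambled arrays. Profile E, with 2 rows, lay close to B, at 5.23, 5.07 and 5.23 on the anti-miR arrays and 4.70, 5.07 and 5.35 on the scrambled arrays. Their differences were -0.12 (SE 0.11) for D and 0.14 (SE 0.16) for E, with the signs of A and B. Without scrambled replicate 3 that of D came to -0.0076, and without scrambled replicate 1 that of E turned to -0.033.

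The remaining shared profiles had 2 rows each and differences within their spread. Profile C read 5.94, 5.58 and 5.39 on the anti-miR arrays and 5.64, 5.59 and 5.85 on the scrambled arrays, a difference of -0.057 (SE 0.15). Profile F read 5.67, 5.54 and 5.35 on the anti-miR arrays and 5.43, 5.54 and 5.77 on the scrambled arrays, a difference of -0.060 (SE 0.11). Profile H, in the last stretch, read 4.03, 3.67 and 3.51 on the anti-miR arrays and 3.65, 3.67 and 3.79 on the scrambled arrays, a difference of 0.034 (SE 0.13). In all 3 the anti-miR arrays spanned a wider range than, or nearly the same range as, the scrambled arrays, and leaving out 1 array turned the sign. C and F came to 0.065 and 0.023 without anti-miR replicate 3 and to 0.022 and 0.034 without scrambled replicate 3, and H to -0.12 without anti-miR replicate 1.

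**Figure D2:**
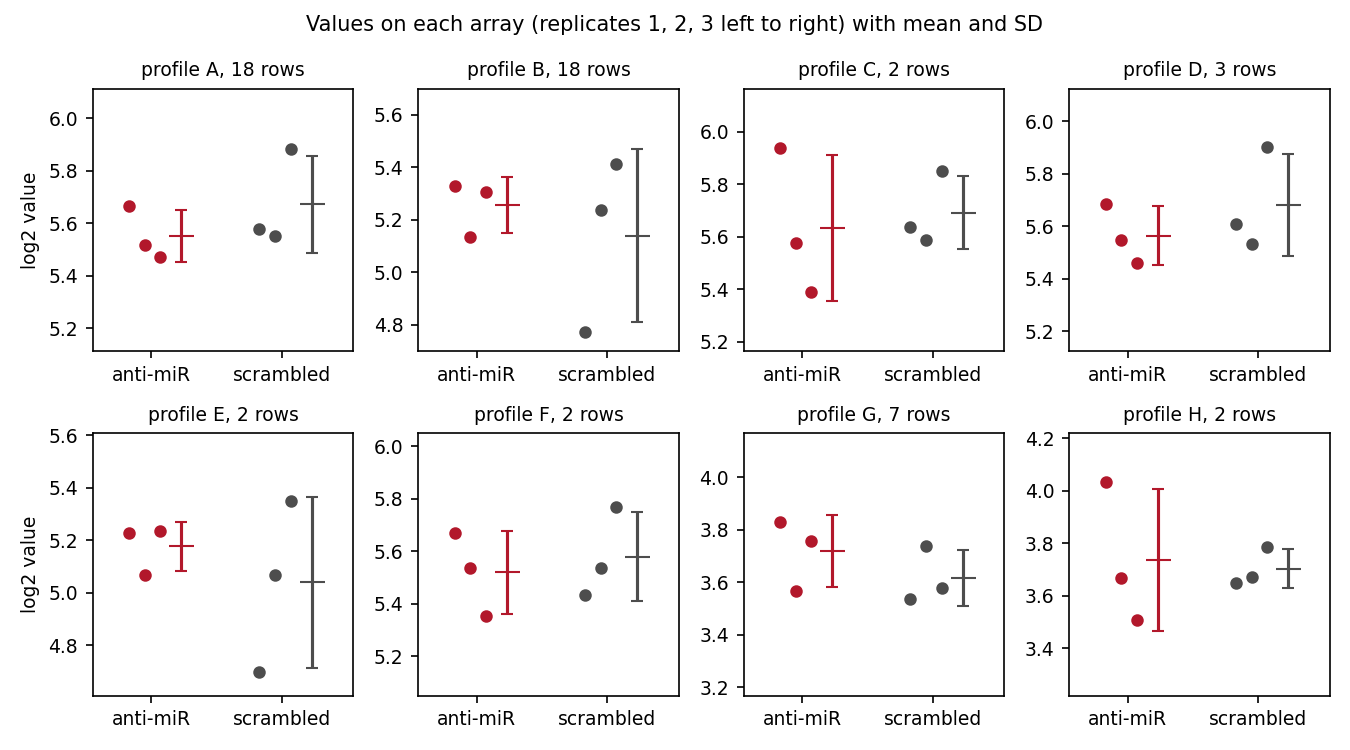
Log2 value of profiles A to H on each array, with anti-miR arrays in red on the left and scrambled arrays in grey on the right of each panel, replicates 1 to 3 from left to right. The bar beside each group gives its mean and SD (n = 3), and every panel spans 1 log2 unit around its own mean. The groups overlap in all 8 panels, and scrambled replicate 1 stands low in B and E.

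Several profiles that were not identical followed one another across the arrays. Likeness was measured as the greatest difference on any of the 6 arrays after each profile's own mean was taken off, over the 741 pairs of profiles. The closest pair was D and 10887000, which differed by a nearly constant 0.12 in level and by at most 0.0079 once means were removed. Next came 4 pairs that held profile A, with 10886942, 10886882, 10887000 and D, at 0.026, 0.028, 0.028 and 0.030. With 10886944 at 0.031, A and these 5 profiles formed a group of 6 profiles and 25 rows whose patterns lay within 0.05 of A. These points come from the same 6 arrays, and the likeness is a description.

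The 6 profiles of the A group had mean levels from 5.55 to 5.75 and differences from -0.14 to -0.11. All 6 were highest on scrambled replicate 3, by 0.21 to 0.26 over the next array, and all 6 were lowest on anti-miR replicate 3. Within the block profile B was most like 10886974, at 0.068, and E, at 0.077, while the outside row 10916107, at a mean level of 4.76, lay closer to B, at 0.062. B, E and 10886974, 3 profiles and 21 rows in all, were lowest on scrambled replicate 1, by 0.361 to 0.369 below the next array, and highest on scrambled replicate 3. The A and B groups together held 46 of the 85 rows. No pair of distinct profiles had an equal value on any array. This check cannot see a constant offset, so it does not exclude partial identity. Cluster 10887000 lay above D by the same 0.126 on every array except scrambled replicate 1.

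**Figure D3:**
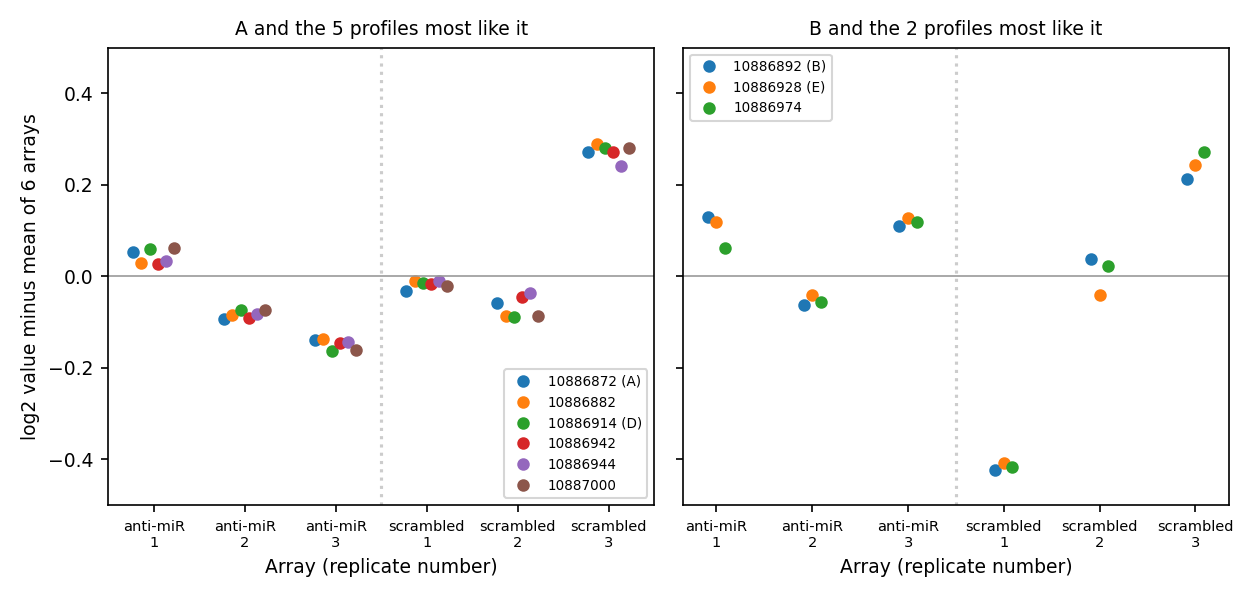
Log2 value minus the profile's mean over the 6 arrays (vertical axis) on each array (horizontal axis, anti-miR left of the dotted line, scrambled right), for A and the 5 profiles most like it and for B and the 2 most like it. Points of a group nearly coincide: the A group peaks on scrambled replicate 3, and the B group drops on scrambled replicate 1.

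A pair of arrays gave the extreme values of many profiles. Scrambled replicate 3 was the highest array for 18 of the 39 profiles (46.2%), where it was the highest for 15.5% of the 6289 clusters of the table at the members' levels, that is with means from 3.28 to 6.08. Outside the A group it was highest for 12 of 33 profiles. Anti-miR replicate 3 was the lowest array for 17 of the 39 profiles (43.6%), against 11.0% of clusters at these levels, while it was the highest for 28.3% of those clusters. Among the 17 is 10886884, where scrambled replicate 3 read the same 5.36. Where arrays tied, the first was counted, in the order anti-miR 1 to 3, then scrambled 1 to 3. Ties were held by 33.3% of the profiles and 53.7% of clusters at these levels, so this rule can weigh on the compared shares unequally. Profiles that resemble one another are not independent, so these shares carry no test. The median over the 39 profiles was nevertheless highest on anti-miR replicate 3, at 5.03 against 4.70 to 4.92 on the other arrays. Array medians over all clusters lay between 7.81 and 7.84.

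The replicate spread of the block was wide for its level. The pooled within-group SD had a median of 0.159 over the 39 profiles, against 0.0892 over the clusters at the members' levels and 0.0636 over all clusters. For 36 of the 39 profiles it lay above the median at these levels. The shared profiles had a median of 0.181 (0.122 to 0.244) and the profiles of 1 row one of 0.154, from 0.0568 for 10886994 to 0.482 for 10887008. The 113 shared profiles elsewhere in the table, which lay higher at a median level of 8.68, had a median SD of 0.0696.

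**Figure D4:**
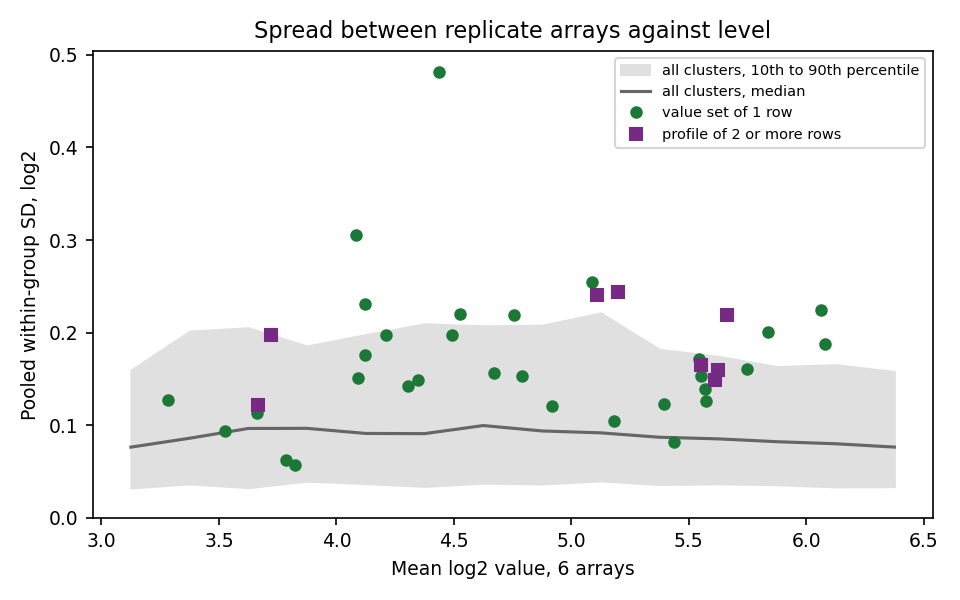
Pooled within-group SD (vertical axis, log2) against mean log2 value over the 6 arrays (horizontal axis) for the 39 profiles, as purple squares for profiles of 2 or more rows and green circles for those of 1 row. The grey line and band give the median and the 10th to 90th percentile of all clusters by level. Of the 39 profiles, 36 lie above the median SD of clusters at these levels, and 10887008 stands apart at 0.482.

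The widest spreads belonged to 3 profiles of 1 row. Cluster 10887008 read 3.94, 4.52 and 5.27 on the anti-miR arrays and 4.24, 4.44 and 4.21 on the scrambled arrays, a range of 1.34 over the 6 arrays. It had the largest difference of the block, 0.28 (SE 0.32), and without anti-miR replicate 3 this turned to -0.069. Cluster 10887014 read 3.91, 3.79 and 4.36 on the anti-miR arrays and 3.80, 4.41 and 4.24 on the scrambled arrays, with an SD of 0.305. Cluster 10886974, of the B group, read 5.15, 5.03 and 5.21 on the anti-miR arrays and 4.67, 5.11 and 5.36 on the scrambled arrays, with an SD of 0.255. Its difference of 0.082 (SE 0.17) turned to -0.11 without scrambled replicate 1, as those of B and E did.

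The anti-miR comparison asked whether any member differed between blockade and control beyond the spread between arrays. In a limma fit over all 29214 clusters, with 3 arrays per group, 251 clusters (0.859%) had a Benjamini-Hochberg adjusted p under 0.05, 31 of them higher (0.106%) and 220 lower (0.753%) under the anti-miR. Of the 85 rows and 39 profiles of the block 0 were called, and 1 profile had an unadjusted p under 0.05, against 14.9% of all clusters. That profile was 10886898. The groups did not overlap for 20.4% of all clusters, 11.1% with the anti-miR arrays higher and 9.33% with them lower, and they overlapped for all 39 profiles. Since the block was chosen from these arrays, these counts are given beside the background and nothing is read from them.

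Over the 39 profiles the difference was negative for 24 and positive for 15, with a median of -0.060, and over the 85 rows 45 were negative and 40 positive, with a median of -0.044. All 29214 clusters had a median of 0.013, and 90% of them lay between -0.18 and 0.17. The clusters at the members' levels had a median of 0.021. Below 0 lay 43.6% of all clusters and 39.6% of those at the members' levels, against 61.5% of the profiles and 52.9% of the rows. Profiles that resemble one another are not independent, so these shares carry no test. The median over the profiles came to -0.0076 without scrambled replicate 3 and to -0.019 without anti-miR replicate 3, the arrays on which profiles of the block were most often highest and lowest. For 29 of the 39 profiles the difference was smaller than the pooled SD, and for 0 it exceeded 2 pooled SDs. Of the 8 shared profiles 4 were lower and 4 higher, with a median of -0.012, and the 31 profiles of 1 row had a median of -0.088.

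On the lower side the largest differences belonged to rows with values of their own. Cluster 10886896 read 4.06, 4.41 and 4.60 on the anti-miR arrays and 4.56, 4.65 and 4.66 on the scrambled arrays, a difference of -0.26 (SE 0.13), which came to -0.12 without anti-miR replicate 1. Anti-miR replicate 3 alone reached into the scrambled range. Cluster 10886898, the dimmest of the block, read 3.12, 3.21 and 3.20 on the anti-miR arrays and 3.43, 3.20 and 3.54 on the scrambled arrays, a difference of -0.21 (SE 0.087, limma unadjusted p = 0.0495, adjusted p = 0.334). Scrambled replicate 2 lay within the anti-miR range, and without scrambled replicate 3 the difference came to -0.14.

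Clusters 10886886, 10886880, 10887010 and 10886942 followed, with differences of -0.19 (SE 0.12), -0.18 (SE 0.15), -0.15 (SE 0.079) and -0.14 (SE 0.095). The anti-miR arrays of 10886880 lay close together, at 4.46, 4.44 and 4.42, while its scrambled arrays read 4.94, 4.32 and 4.59. Cluster 10886886 read 4.15, 4.14 and 3.78 on the anti-miR arrays and 4.35, 4.22 and 4.08 on the scrambled arrays. In both, 1 scrambled array lay among or below the anti-miR arrays. Each of these 4 differences rested in part on 1 array. Cluster 10886880 came to -0.014 without scrambled replicate 1 and to -0.33 without scrambled replicate 2, and 10886886 to -0.072 without anti-miR replicate 3 and to -0.13 without scrambled replicate 1. Cluster 10887010 came to -0.073 without scrambled replicate 2, and 10886942 to -0.038 without scrambled replicate 3.

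On the higher side 10886890 came after 10887008, at 5.88, 5.40 and 5.69 on the anti-miR arrays and 5.43, 5.47 and 5.39 on the scrambled arrays, a difference of 0.23 (SE 0.12). Anti-miR replicates 1 and 3 lay above the scrambled arrays and replicate 2 among them. The difference came to 0.11 without anti-miR replicate 1 and to 0.35 without anti-miR replicate 2. Cluster 10886920 read 3.90, 4.22 and 4.53 on the anti-miR arrays and 3.95, 4.08 and 4.08 on the scrambled arrays, a difference of 0.18 (SE 0.15), which came to 0.022 without anti-miR replicate 3. Cluster 10887030 differed by 0.14 (SE 0.083), with 4.92 on anti-miR replicate 2 and on scrambled replicates 1 and 3 alike, and came to 0.070 without scrambled replicate 2 and to 0.078 without anti-miR replicate 3. Profiles E and B, described above, complete the 6 largest positive differences.

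The 3 brightest clusters had small differences for their spread. Cluster 10887018 read 6.06, 5.94 and 6.31 on the anti-miR arrays and 5.84, 6.13 and 6.18 on the scrambled arrays, a difference of 0.057 (SE 0.13). For 10886946, at 6.23, 6.04 and 5.72 on the anti-miR arrays and 6.04, 6.01 and 6.34 on the scrambled arrays, it was -0.14 (SE 0.15). The groups of both overlapped, and the signs turned when 1 array was left out. Cluster 10887018 came to -0.046 without anti-miR replicate 3 and to -0.049 without scrambled replicate 1, and 10886946 to 0.0028 without anti-miR replicate 3. For 10887034 the difference was -0.0096 (SE 0.13), and it turned to 0.14 without scrambled replicate 3 and to 0.017 without anti-miR replicate 2.

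**Figure D5:**
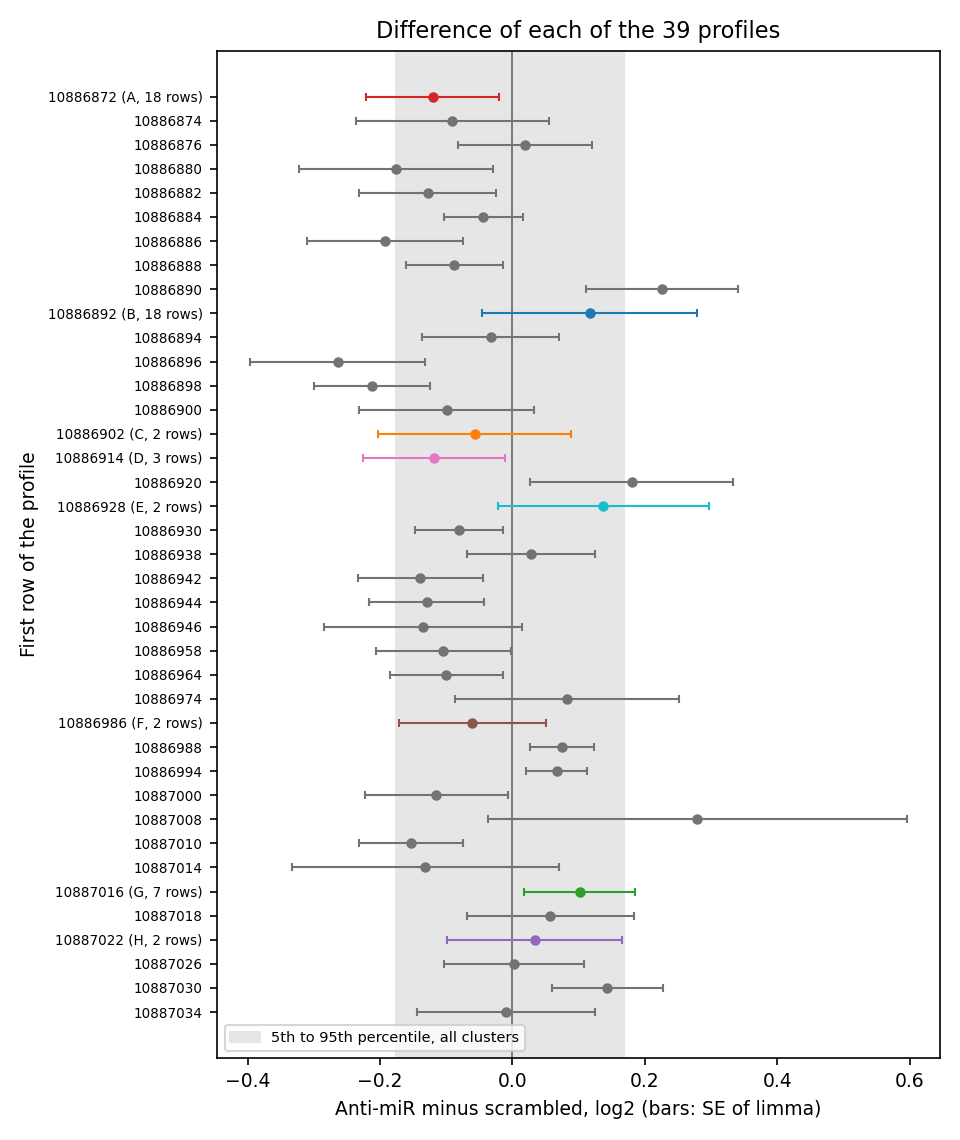
Anti-miR minus scrambled difference on the log2 scale (horizontal axis) for each of the 39 profiles, in identifier order from top to bottom, with bars for the SE of the limma fit. Grey shading spans the 5th to 95th percentile of all 29214 clusters, -0.18 to 0.17. Of the profiles 24 lie below 0 and 15 above, and the SE bar of 10887008 is the widest.

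Some rows held the same value on 2 or more arrays. This occurred in 13 of the 39 profiles (33.3%), among them 10886958, which read 4.02 on 4 of the 6 arrays, 4.07 on anti-miR replicate 3 and 4.39 on scrambled replicate 1. Of the 8 shared profiles E and F held such a tie. Among all clusters at the members' levels 53.7% held one, and 37.6% of all clusters did.

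The edges of the block were given as identifiers. Its first row belonged to shared profile A and its last to shared profile G, so the edges coincided with shared values. Just below it, 10886866, 10886868 and 10886870 had mean levels of 4.72, 5.34 and 4.79 and differences of 0.29, -0.042 and -0.060. Just inside, the first row of profile A, 10886874 and 10886876 had mean levels of 5.61, 4.75 and 4.35 and differences of -0.12, -0.091 and 0.019. At the upper end the last rows, of profiles G, H and G at mean levels of 3.67, 3.72 and 3.67 and differences of 0.10, 0.034 and 0.10, were followed outside by 10887042, 10887044 and 10887046, at mean levels of 5.27, 3.53 and 4.28 and differences of -0.032, 0.027 and -0.017. None of the 6 outside rows shared its values with another row. Once means were removed, the adjacent row 10886868 was the outside row most like profile C, at 0.048. For profile F it was 10744395, far from the block, at 0.043. For each of the other 6 shared profiles the most like outside row also lay far from the block by identifier, at 0.051 to 0.062. Profile A lay closer to 10886942 within the block, at 0.026, than to any outside row, at 0.057. Profile D lay at 0.0079 from 10887000 and at 0.051 from its closest outside row. For B, C, E, F, G and H an outside row was closer than any other profile of the block. The search outside covered 29129 rows, many more than the block holds, and the outside rows were chosen after their values were seen.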

How the data were processed

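The log2 values of the 6 cell arrays are as deposited by the authors. Per the submitters' processing notes, RMA was run (affy, under R 2.9.2). Probe-set definition, annotation and filters are not stated there. Columns were matched to samples by their headers, and none was left over. Islet microRNA arrays of the same series were not used here.

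Rows were grouped by exact equality of the deposited values, and named profiles follow a rule: every shared profile, the 3 highest and lowest levels, the 6 largest differences in each direction and the 3 widest SDs. The block, the rule and the tests were chosen with earlier results of these data known.

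Differences (anti-miR minus scrambled) came from a 2-sided linear model (lmFit, then eBayes, in limma 3.58.1 under R 4.3.3) over all 29214 clusters without filter or replicate block, with Benjamini-Hochberg adjustment, and SEs are those of this fit. The fit was tested on simulated arrays. Alternatives were merged identical rows, other normalizations, other variance priors, a filter on dim clusters, a replicate block and leaving out each array.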

Additional observations from a re-analysis of the deposited data

How the results depend on the processing

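No member was called under any alternative that could be run, and 0 to 3 of the 39 profiles had an unadjusted p under 0.05. All 24 named differences moved by less than their pooled SD. Leaving out 1 array from a group of 3 cannot move a difference further than that, so this does not test their stability. Of the 24, 5 turned sign without anti-miR replicate 3, 4 without scrambled replicate 1 and 3 without scrambled replicate 3. Among these 24 the sign turned for 1 each without anti-miR replicate 1 or 2, and for 0 without scrambled replicate 2. Over all 39 profiles it turned for 9 without scrambled replicate 1, 2 without scrambled replicate 2 and 3 without scrambled replicate 3. Without anti-miR replicates 1, 2 and 3 it turned for 3, 2 and 7 of the 39. Grouping rows within 0.01 left 39 profiles. The filter on dim clusters removed every member and gave 910 calls over the remaining clusters (302 higher, 608 lower). Calls over all clusters came to 558 with a trended variance prior (140 higher, 418 lower) and to 54 to 73 with 1 array left out (fewer arrays), against 251 (31 higher, 220 lower). With the replicate number as a block they came to 54 (0 higher, 54 lower), with 0 member calls. Deviations of same-numbered arrays correlated at 0.048, 0.085 and 0.027, which does not establish a pairing, though 5 of 6 arrays correlated best with their own number. Causes were not tested. Low signal without detection calls limits what the members' values can show.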
